A study of Homo sapiens with 145 samples.

Results

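The 2 lowest etoposide doses of a dose series in HT-1080 cells, 0.003 and 0.01 µM, were compared with their DMSO vehicle after 24 h of exposure. HT-1080 is an established human fibrosarcoma line with wild-type p53, and every group here was the same line in the same medium. The arrays were chosen by title: the etoposide groups at 0.003 µM, at 0.01 µM and in DMSO, without the arrays labelled number 2. That gave 16 of the 145 arrays of the series, which also tested quercetin and methyl methanesulfonate. They were 5 vehicle arrays, 5 arrays at 0.003 µM and 6 at 0.01 µM. At 0.01 µM, 2 arrays carried number 6, 1 of them with an added "-nf" that the labels do not explain, and their mean was used, so each group held 5 replicates, numbered 1, 3, 4, 5 and 6. The arrays left out were 2 of the vehicle and 1 at 0.003 µM. They were set aside because, in earlier results of these data, number 2 arrays at the higher doses responded like those of another chemical. The 5 arrays at 0.03 µM, the next dose, serve as a reference, and number 3 among them also carries "-nf".

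Etoposide is a topoisomerase II poison. The enzyme passes one DNA duplex through a break in another, and the drug holds it in the cleaved state, so that breaks with protein bound to their ends remain. Such breaks activate the kinase ATM, which stabilises p53, and p53 then raises transcription of genes for its own feedback control, for cell cycle arrest, for death signalling and for repair. Through p21, the product of CDKN1A, p53 also lowers the transcription of genes for DNA replication, recombination and mitosis.

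Values are log2 signals of Affymetrix probe sets, 1 probe set per gene, for 12070 genes. The groups' arrays had medians of 3.53 to 3.57 and upper quartiles of 6.57 to 6.64, which the authors' normalization makes nearly equal, and no array repeated another. Of 15 mesenchymal marker genes, 13 passed the filter on dim probe sets, all with a mean of at least 4 and the highest at 13.3. Of 13 epithelial markers 3 passed, and of 14 blood cell markers 3 passed. The mean level of the mesenchymal markers was 9.92 to 10.1 in the vehicle arrays, 9.90 to 10.1 at 0.003 µM and 9.92 to 10.1 at 0.01 µM. That of the epithelial markers was 7.61 to 8.13, 7.80 to 8.17 and 7.76 to 8.30, and that of the blood cell markers 4.32 to 4.74, 4.17 to 4.67 and 4.35 to 4.70, in the same order of groups.

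No gene passed the test at either dose when arrays were compared as independent groups, and none was 1.5-fold away from vehicle in its estimate. The highest and lowest estimates were 0.43 and -0.45 at 0.003 µM and 0.52 and -0.43 at 0.01 µM, on the log2 scale. In the limma fit without pairing, 0 of 12070 genes (0% called) had a Benjamini-Hochberg adjusted p under 0.05 at 0.003 µM, 0 at 0.01 µM (0%) and 0 with both doses pooled (0%). At an unadjusted p under 0.05 there were 118 (0.978%; 0.597% higher and 0.381% lower), 208 (1.72%; 0.986% and 0.737%) and 203 (1.68%; 0.953% and 0.729%) genes. These shares lie below what a limit of 0.05 gives where nothing differs. The fit without pairing leaves the differences between numbers in its error, so its 0 calls do not show that no gene changed. The 95% confidence interval of the change lay wholly within 1.5-fold for 94.8% of genes at 0.003 µM, for 94.3% at 0.01 µM and for 97% in the pooled comparison.

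Arrays with the same number deviated alike, so each dosed array was also compared with the vehicle array of its own number, by entering the number as a block in the fit. With the block, 0 genes passed at 0.003 µM (0%, smallest adjusted p 0.264), 2 passed at 0.01 µM (0.0166%) and 7 passed in the pooled comparison (0.058%), 6 higher and 1 lower. None of these 7 reached 1.5-fold. The unadjusted counts with the block were 647 genes (5.36%), 1053 (8.72%) and 1074 (8.9%; 4.28% higher and 4.61% lower). The 7 calls depended on single arrays. Leaving out 1 array or 1 number at a time gave 0 to 35 genes in the pooled comparison. The count was 0 without vehicle number 1, 4 or 5, without 0.003 µM number 5, and without all arrays of number 1, 4 or 5. It was 1 without 0.003 µM number 3, 2 without all arrays of number 6, 3 without 0.003 µM number 4 or 0.01 µM number 3, and 4 without 0.01 µM number 4 or 6. It was 12 without 0.01 µM number 5, 22 without vehicle number 3 and 35 without all arrays of number 3. With the number 2 arrays kept it was 0. The count of 2 at 0.01 µM went to 0 without vehicle number 1 or 4, without 0.01 µM number 4 or 6, without all of number 1, 4 or 6, and with number 2 kept. It went to 1 without vehicle number 5, 0.003 µM number 6 or 0.01 µM number 1 or 3. It was 3 without all of number 5, 5 without vehicle number 6, 17 without 0.01 µM number 5, 32 without vehicle number 3 and 63 without all of number 3.

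The gene among these 7 with the closest tie to the drug's known action was TP53INP1, a p53-induced nuclear stress protein that takes part in p53-dependent arrest and death. Its vehicle arrays read 7.73, 8.00, 7.98, 8.14 and 7.90 for numbers 1, 3, 4, 5 and 6. At 0.003 µM they read 8.04, 8.25, 8.04, 8.58 and 8.31. At 0.01 µM they read 8.36, 8.34, 8.36, 8.42 and 8.49. Every array at 0.01 µM lay above every vehicle array, the groups at 0.003 µM and vehicle overlapped, and all 10 dosed replicates lay above the vehicle of their own number. The change was 0.29 at 0.003 µM (SE 0.09 with the block, limma adjusted p = 0.708) and 0.44 at 0.01 µM (SE 0.09, adjusted p = 0.0439), or 1.36-fold. Without the block the adjusted p at 0.01 µM was 1. With the block, TP53INP1 at 0.01 µM kept an adjusted p under 0.05 in 7 of the 20 fits that left out an array or a number.

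LOC100289026, which RefSeq lists as a pseudogene, had the smallest p of the pooled comparison. The vehicle arrays of this gene read 10.05, 10.47, 10.36, 10.44 and 10.38. At 0.003 µM they read 10.29, 10.54, 10.61, 10.78 and 10.59, and at 0.01 µM 10.43, 10.66, 10.85, 10.65 and 10.82. Both dose groups overlapped the vehicle because number 1 was the lowest array in each of the 3 groups, and within every number the dosed arrays were higher. The change was 0.22 at 0.003 µM (SE 0.06 with the block) and 0.34 at 0.01 µM (SE 0.06, limma adjusted p = 0.00836). The pooled change was 0.28 (adjusted p = 0.0203). Over the 20 fits that left out an array or a number, LOC100289026 lost an adjusted p under 0.05 in 7 at 0.01 µM and in 8 in the pooled comparison, with highest adjusted p of 0.245 and 0.172 (limma with the block).

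The other 4 genes that were higher with the block were CREBL2, LYRM1, CTTNBP2NL and NTPCR. In the pooled comparison they kept an adjusted p under 0.05 in 12, 10, 9 and 5 of the 20 fits that left out an array or a number. CREBL2, a bZIP protein related to CREB, read 9.01, 9.28, 9.33, 9.17 and 9.37 in the vehicle, 9.20, 9.54, 9.55, 9.48 and 9.45 at 0.003 µM, and 9.17, 9.50, 9.61, 9.49 and 9.46 at 0.01 µM. CREBL2 was higher by 0.21 at each dose (pooled limma adjusted p = 0.0243), with number 1 the lowest array in all 3 groups and the groups overlapping. LYRM1, a small protein of the LYR motif family, read 9.12, 9.41, 9.31, 9.34 and 9.52 in the vehicle, 9.24, 9.64, 9.81, 9.58 and 9.63 at 0.003 µM, and 9.31, 9.56, 9.75, 9.53 and 9.67 at 0.01 µM. LYRM1 was higher by 0.24 and 0.22 (pooled adjusted p = 0.0243), in all 10 pairs and with overlapping groups. For CTTNBP2NL, which belongs to a phosphatase-kinase complex at the actin cytoskeleton, the vehicle arrays read 8.86, 9.04, 8.90, 8.96 and 9.06, those at 0.003 µM 9.02, 9.21, 9.30, 9.21 and 9.08, and those at 0.01 µM 9.10, 9.24, 9.34, 9.15 and 9.09. All 5 arrays at 0.01 µM lay above the 5 vehicle arrays, but within number 6 the difference was 0.024. The pooled change of CTTNBP2NL was 0.21 (adjusted p = 0.0248). NTPCR, a nucleoside triphosphatase, read 8.70, 9.09, 9.26, 9.00 and 9.17 in the vehicle, 8.91, 9.22, 9.38, 9.29 and 9.26 at 0.003 µM, and 9.12, 9.27, 9.37, 9.24 and 9.41 at 0.01 µM. NTPCR was higher by 0.17 and 0.24 (pooled adjusted p = 0.0415), and its groups overlapped.

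MSH6, a mismatch repair protein, was the gene that fell with the block. Its vehicle arrays read 10.62, 10.21, 10.25, 10.28 and 10.31, with number 1 apart from the others. At 0.003 µM they read 10.49, 10.18, 10.03, 10.19 and 10.14, and at 0.01 µM 10.36, 10.07, 10.09, 10.18 and 10.09. The groups overlapped, and all 10 dosed replicates lay below the vehicle of their own number. The pooled change was -0.15 (SE 0.03 with the block, limma adjusted p = 0.0415), and it kept an adjusted p under 0.05 in 4 of the 20 fits that left out an array or a number and in 1 of 8 other settings with the block. With the number 2 arrays kept the change of MSH6 was -0.068, and in the number 2 arrays themselves it was higher at 0.003 µM than in the vehicle, by 0.17. CREBL2 and NTPCR also went against their calls in the number 2 arrays, at -0.12 and -0.11. LOC100289026, TP53INP1, LYRM1 and CTTNBP2NL were higher there, by 0.30, 0.11, 0.081 and 0.067.

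**Figure D1:**
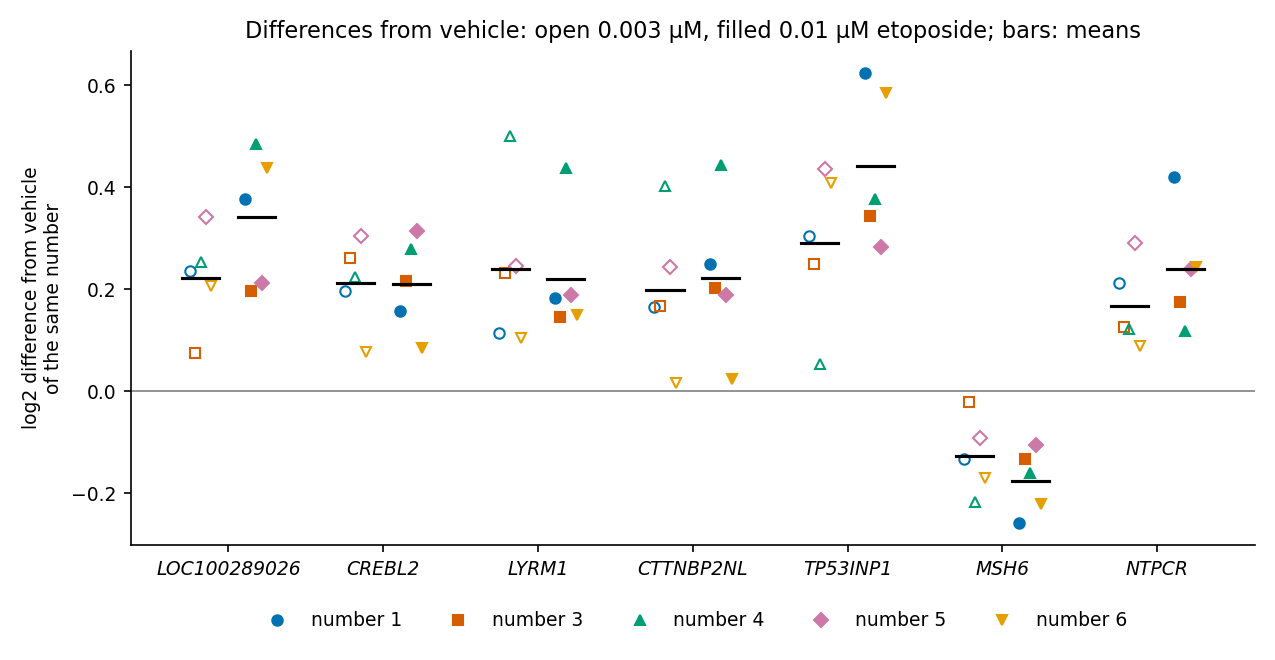
Log2 difference between each dosed array and the vehicle array of the same number for the 7 genes that passed with the block, with open symbols for 0.003 µM, filled symbols for 0.01 µM and bars for the means of 5 pairs. For 6 genes all 10 differences lie above 0, for MSH6 all 10 lie below 0, and for LOC100289026 and TP53INP1 the mean is larger at 0.01 than at 0.003 µM.

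Most p53 targets stood above vehicle at both doses, and 1 of them passed the test with the block. The list holds 56 genes, of which 49 were measured, in 3 sets by role. At 0.003 µM, 41 of the 49 had a change above 0, with a median of 0.072, where all 12070 genes had a median of -0.0081 and 45.9% lay above 0. At 0.01 µM, 44 of the 49 lay above 0, with a median of 0.14, against -0.0023 and 48.7% for all genes. With the block, 5 of 49 were higher at an unadjusted p under 0.05 at 0.003 µM, where 2.56% of all genes were, and 22 of 49 at 0.01 µM, where 4.23% were. None was lower at that limit at either dose. After adjustment TP53INP1 at 0.01 µM was the 1 member that passed. Both doses share the 5 vehicle arrays, so these counts are not independent.

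By number, the median p53 target differed from its own vehicle by 0.068, 0.030, 0.0084, 0.19 and 0.11 at 0.003 µM for numbers 1, 3, 4, 5 and 6. At 0.01 µM the medians were 0.24, 0.10, 0.078, 0.10 and 0.25. All 10 medians lay above 0, and only number 5 had a lower median at 0.01 than at 0.003 µM. The mean level of the 49 genes in vehicle number 4, 8.46, was higher than in the other 4 vehicle arrays, which spanned 8.31 to 8.37.

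**Figure D2:**
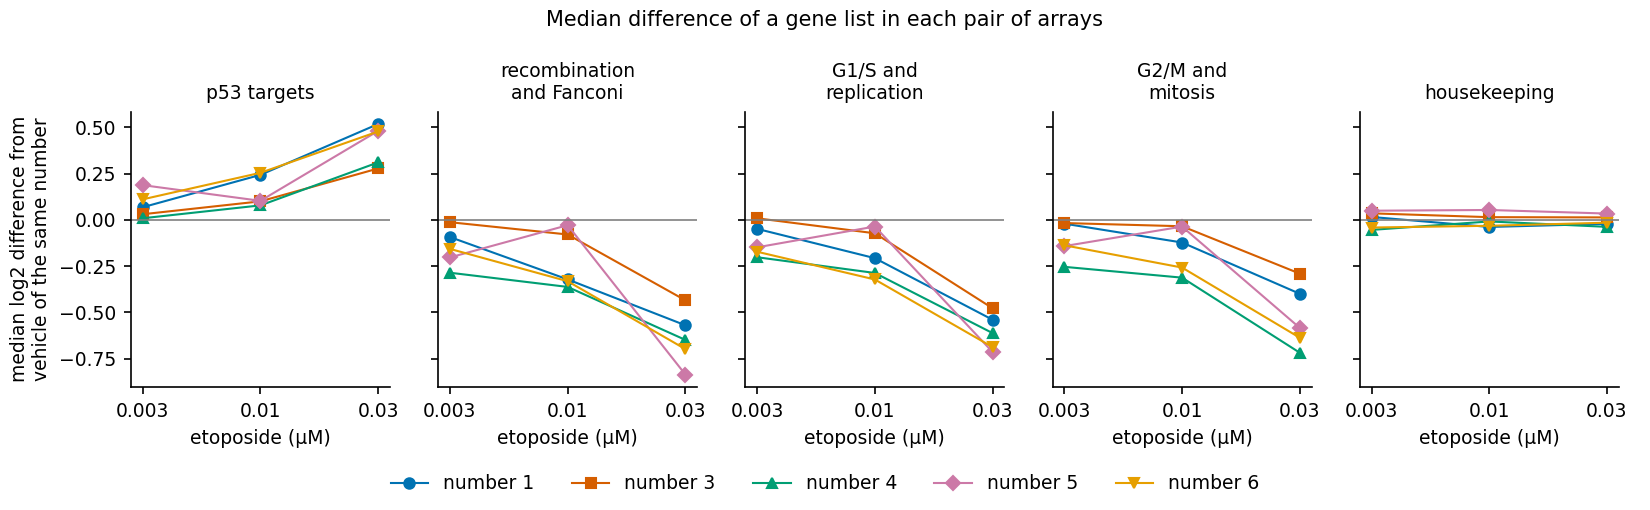
Median log2 difference of the genes of 5 lists between each dosed replicate and the vehicle array of the same number, at 0.003, 0.01 and 0.03 µM, 1 line per number. The p53 targets reach 0.25 at most at the 2 low doses and 0.28 to 0.52 at 0.03 µM, the recombination, replication and mitosis lists go the other way, and the 12 housekeeping genes stay between -0.054 and 0.053.

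The first set of p53 targets holds 9 feedback regulators, which act on p53 itself. MDM2 encodes the ubiquitin ligase that marks p53 for destruction. MDM2 read 9.98, 9.87, 9.77, 10.11 and 9.99 in the vehicle, 10.05, 9.98, 9.82, 10.33 and 10.16 at 0.003 µM, and at 0.01 µM 10.40, 10.12, 10.02, 10.05 and 10.22. MDM2 was higher than its own vehicle in 5 of 5 pairs at 0.003 µM and in 4 of 5 at 0.01 µM, number 5 being the exception, and the groups overlapped at both doses. The changes were 0.12 (SE 0.06 with the block, limma adjusted p = 0.903) and 0.22 (SE 0.06, adjusted p = 0.251). PPM1D, the phosphatase WIP1 that turns off ATM signalling, was higher by 0.08 and 0.20, and its arrays at 0.01 µM did not overlap the vehicle. MDM4 differed by 0.06 and 0.02 and COP1, another ubiquitin ligase of p53, by -0.08 at each dose. PPM1D, MDM4 and COP1 were chosen after their values were seen, as were the list members named from here on other than CDKN1A, SESN1, GDF15, TP53I3, SPATA18, FAS, MTBP, TOP2A, TOP2B and the genes of the smallest p-values.

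Of the 24 measured arrest and growth targets, none passed at either dose with or without the block. CDKN1A encodes p21, the inhibitor of cyclin-dependent kinases. In the vehicle it read 8.83, 9.10, 8.90, 9.11 and 8.61, at 0.003 µM 8.99, 9.13, 8.91, 8.89 and 8.93, and at 0.01 µM 9.50, 9.23, 9.24, 8.97 and 9.21. The arrays at 0.003 µM lay within the vehicle's range except for number 3, and at 0.01 µM 4 of 5 lay above every vehicle array while number 5 lay below its own vehicle. CDKN1A differed by 0.06 at 0.003 µM, with a 95% interval of -0.09 to 0.22 in the fit with the block. Without vehicle number 6, the lowest vehicle array, CDKN1A at 0.003 µM turned to -0.012 in the fit without the block. With the block, CDKN1A at 0.003 µM was -0.020 in the lowest of the 20 fits that left out an array or a number. At 0.01 µM it differed by 0.32, or 1.25-fold (SE 0.08, limma adjusted p = 0.113 with the block and 1 without).

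SESN1, a sestrin that restrains mTORC1, was higher in all 10 pairs. Its vehicle arrays read 8.08, 8.22, 8.28, 8.28 and 8.16, those at 0.003 µM 8.12, 8.29, 8.48, 8.51 and 8.30, and those at 0.01 µM 8.33, 8.46, 8.49, 8.44 and 8.65. The 5 arrays at 0.01 µM lay above all vehicle arrays. The changes of SESN1 were 0.14 and 0.27 (SE 0.06 with the block, limma adjusted p = 0.903 and 0.0925). PHLDA3, an inhibitor of AKT, TIGAR, a regulator of glycolysis, PTCHD4 and SUSD6 were also higher in 10 of 10 pairs, which 106 of the 12070 genes were (0.878%), and none passed.

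GDF15, a secreted stress cytokine of the TGF-beta family, varied more between numbers than between groups. In the vehicle it read 11.11, 12.03, 11.90, 11.50 and 11.54, at 0.003 µM 11.16, 11.97, 11.94, 11.76 and 11.68, and at 0.01 µM 11.39, 12.05, 12.14, 11.53 and 11.97. Number 1 was the lowest in every group, and the groups overlapped throughout. GDF15 differed by 0.09 at 0.003 µM (95% interval -0.06 to 0.23 with the block) and by 0.20 at 0.01 µM (limma adjusted p = 0.393 with the block). Leaving out vehicle number 1 turned GDF15 at 0.003 µM to -0.042 in the fit without the block. With the block it ran from 0.033 to 0.15 over the 20 fits that left out an array or a number. TP53I3, an oxidoreductase, differed by 0.04 and 0.25 (adjusted p = 0.962 and 0.393 with the block). SPATA18, a factor of mitochondrial quality control, differed by 0.21 and 0.44 (adjusted p = 0.903 and 0.251 with the block), from a vehicle mean of 4.25, near the filter level of 4.

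Of the 16 measured death and repair targets none passed either. FAS encodes a death receptor. Its vehicle arrays read 7.70, 7.49, 7.68, 7.75 and 7.82, those at 0.003 µM 7.85, 7.76, 7.52, 8.06 and 7.92, and those at 0.01 µM 8.18, 7.74, 7.89, 7.83 and 8.16. FAS was higher in 4 of 5 and 5 of 5 pairs with overlapping groups, by 0.14 and 0.27 (SE 0.07 with the block, limma adjusted p = 0.903 and 0.115). The damage sensors of nucleotide excision repair XPC and DDB2 differed by 0.25 and 0.22 at 0.01 µM (adjusted p = 0.12 and 0.27 with the block). The death effectors BAX, BBC3 and PMAIP1 differed by 0.16, 0.01 and -0.04 at that dose.

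At 0.01 µM, all 5 arrays lay above all 5 vehicle arrays for 14 genes of 12070 (0.116%), and 4 of these were p53 targets, TP53INP1, SESN1, PPM1D and XPC. At 0.003 µM there were 5 such genes (0.0414%) and no p53 target among them.

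**Figure D3:**
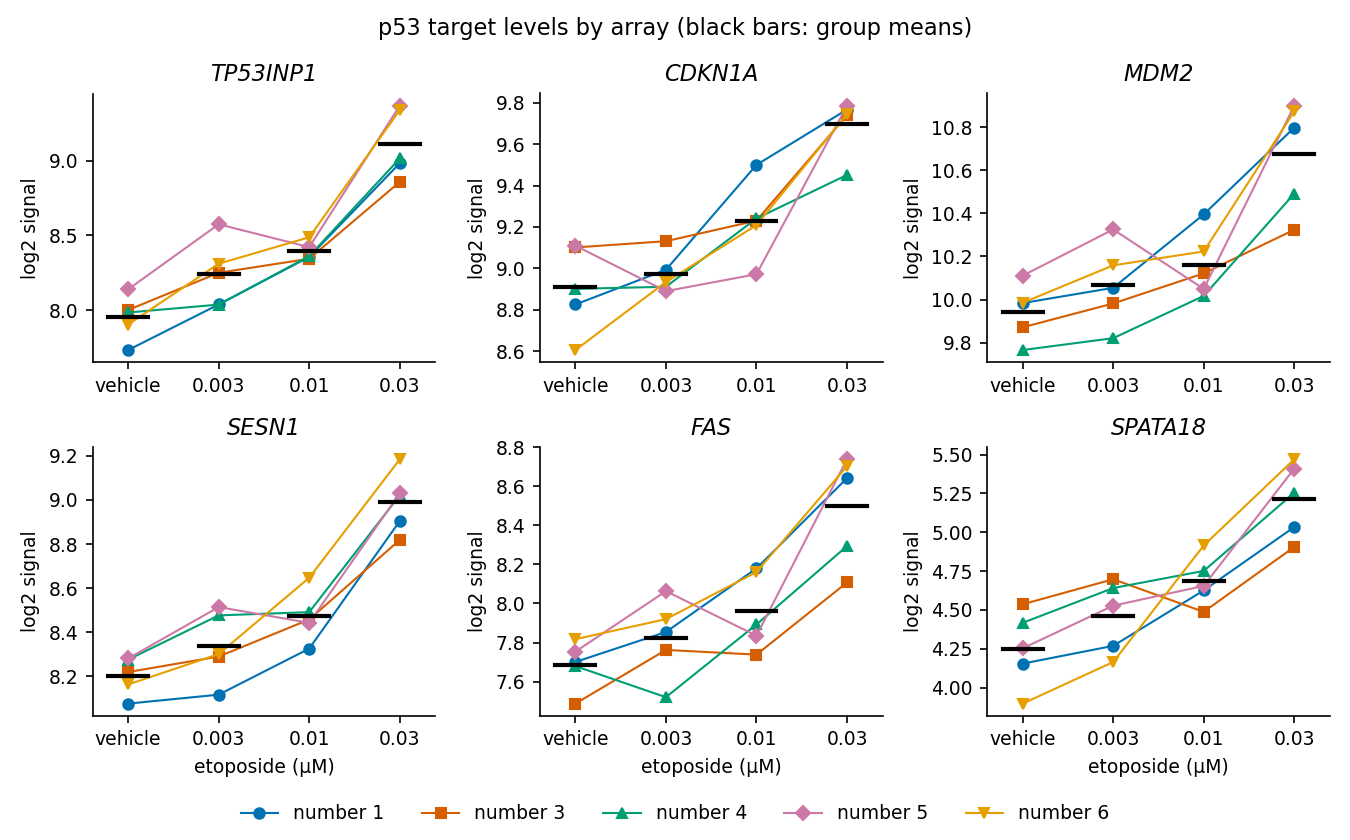
Log2 signal of 6 p53 targets in the vehicle and at 0.003, 0.01 and 0.03 µM etoposide, 5 replicates per group joined by number, with black bars for the group means. At 0.003 µM the replicates of all 6 genes overlap the vehicle, at 0.01 µM those of TP53INP1 and SESN1 do not, and for all 6 genes the mean at 0.03 µM is the highest of the 4 groups.

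To show what p53 reads at some of these genes, the RefSeq promoter windows of GRCh38.p14, from 250 bases before to 50 bases after each annotated start, were searched for the p53 response element consensus. A match was 2 half-sites of the consensus with at most 1 base between them and at most 2 mismatches, with the fixed C and G of each half-site kept. The consensus reads the same on both strands, so 1 pass covers both. It occurred in 187 of 35116 windows (0.533%), in 184 of 27305 genes with a window (0.674%), in 5 of the 41 measured p53 targets with a window (12.2%) and in 0 of the 5 genes with a window among those that passed with the block. The 5 sites are given 5′ to 3′ on the strand of the gene, with the match in capitals.
MDM2: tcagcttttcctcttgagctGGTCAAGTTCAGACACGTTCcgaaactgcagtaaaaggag
FAS: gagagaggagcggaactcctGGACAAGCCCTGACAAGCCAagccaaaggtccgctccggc
PTCHD4: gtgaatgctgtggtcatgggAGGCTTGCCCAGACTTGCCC
AEN: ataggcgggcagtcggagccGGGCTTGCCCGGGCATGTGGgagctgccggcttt
DDB2: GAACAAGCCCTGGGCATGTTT
The MDM2 stretch is chr12:68808903-68808962 on the plus strand and its match, with 2 mismatches, begins at base -94 from the annotated start. The FAS stretch is chr10:88991289-88991348 on the plus strand, with 2 mismatches from base -122. The PTCHD4 stretch is chr6:48111198-48111237 on the minus strand, and its match has 0 mismatches and ends at base -1. The AEN stretch is chr15:88621286-88621339 on the plus strand, with 2 mismatches from base -34. The DDB2 match, chr11:47214979-47214999 on the plus strand, has 0 mismatches and 1 base between its half-sites, and it lies after the start, from base 5. At 0.01 µM the 5 genes differed from vehicle by 0.22 (MDM2), 0.27 (FAS), 0.18 (PTCHD4), 0.04 (AEN) and 0.22 (DDB2), and a match in these letters does not show that p53 was bound.

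Genes of DNA replication, recombination and mitosis stood below vehicle at both doses, and none passed the test. Of 34 measured G1/S and replication genes, 31 lay below 0 at 0.003 µM, with a median of -0.13, and 32 at 0.01 µM, with a median of -0.19. Of all 12070 genes, 45.9% and 48.7% lay above 0 at the 2 doses. With the block, 2 and 15 of the 34 were lower at an unadjusted p under 0.05, where 2.8% and 4.49% of all genes were. MCM3, a subunit of the replicative helicase, read 9.83, 9.12, 8.99, 9.27 and 9.28 in the vehicle, 9.67, 9.11, 8.61, 8.81 and 9.02 at 0.003 µM, and 9.66, 8.96, 8.54, 9.04 and 8.88 at 0.01 µM. MCM3 was below its own vehicle in all 10 pairs while the groups overlapped, number 1 being the highest in each (-0.25 and -0.28, limma adjusted p = 0.25 at 0.01 µM with the block). CCND1, cyclin D1, was among the few above 0, at 0.12 and 0.19.

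All 15 measured homologous recombination and Fanconi genes lay below 0 at both doses, where 45.9% and 48.7% of all genes lay above 0. Their medians were -0.11 and -0.23. At an unadjusted p under 0.05 with the block, 2 and 9 of them were lower, where 2.8% and 4.49% of all genes were. EXO1, a nuclease that resects break ends, read 8.04, 7.32, 7.18, 7.45 and 7.51 in the vehicle, 7.87, 7.30, 6.60, 7.08 and 7.31 at 0.003 µM, and 7.60, 7.20, 6.46, 7.09 and 7.15 at 0.01 µM. EXO1 was below its own vehicle in all 10 pairs, and numbers 4 and 5 were the furthest below it at 0.003 µM and numbers 1 and 4 at 0.01 µM. Its changes were -0.27 and -0.40, and its limma adjusted p at 0.01 µM was 0.32 with the block. BLM, a helicase, BRIP1, another helicase, and UBE2T, the ubiquitin-conjugating enzyme of the Fanconi pathway, were also lower in all 10 pairs, which 135 of the 12070 genes were (1.12%).

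All 32 measured G2/M and mitosis genes lay below 0 at both doses, where 45.9% and 48.7% of all genes lay above 0. Their medians were -0.094 and -0.15. With the block, 0 and 1 of them were lower at an unadjusted p under 0.05, where 2.8% and 4.49% of all genes were. CDK1, the kinase of mitotic entry, differed by -0.07 and -0.16 and AURKB, the Aurora kinase of the chromosomal passenger complex, by -0.21 and -0.23. Genes of these 3 lists vary together with the share of cycling cells, so their number counts for less than it seems, and in bulk RNA fewer cells of a kind and less RNA per cell cannot be told apart. By number, the mitosis median at 0.01 µM was -0.12, -0.035, -0.31, -0.037 and -0.26 for numbers 1, 3, 4, 5 and 6. Numbers 3 and 5 were near 0 there in the replication list too, at -0.073 and -0.036, and in the recombination list, at -0.079 and -0.029. At 0.003 µM number 3 was at 0.0083 in the replication list, the 1 median above 0 among the 3 lists. The vehicle arrays themselves spread further than these differences: the mean level of the replication genes was 9.16 in vehicle number 1 and 8.42 in vehicle number 4.

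Among the target enzymes, TOP2A and TOP2B did not pass at either dose. TOP2A, the isoform of dividing cells, read 11.91, 11.63, 11.26, 12.09 and 11.65 in the vehicle, 11.79, 10.98, 11.56, 11.75 and 11.79 at 0.003 µM, and 11.90, 11.16, 11.57, 11.80 and 11.63 at 0.01 µM. TOP2A differed by -0.13 (95% interval -0.39 to 0.13 with the block) and -0.09 (-0.35 to 0.16), with number 3 the lowest at both doses. TOP2B, the isoform also present in resting cells, differed by 0.10 (0.02 to 0.19) and 0.05 (-0.03 to 0.14). The 24 measured genes of topoisomerase adduct removal and break signalling had medians of -0.017 and -0.028, and none passed. With the block, 1 was higher and 0 lower at an unadjusted p under 0.05 at 0.003 µM, where 2.56% and 2.8% of all genes were. At 0.01 µM 1 was higher and 4 lower, where 4.23% and 4.49% of all genes were. H2AX (-0.19 and -0.24) and PRKDC (-0.11 and -0.15) were below their own vehicle in all 10 pairs, which 1.12% of all genes were. TDP2, which removes topoisomerase II from DNA ends, differed by 0.01 and -0.06, and ATM by 0.04 and -0.06.

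No member of the lists of other stress responses passed. At 0.003 and 0.01 µM the medians were -0.014 and -0.048 for 22 targets of ATF4, 0.0066 and 0.023 for 16 endoplasmic reticulum chaperones, -0.047 and -0.037 for 13 heat shock proteins, and 0.013 and 0.071 for 16 interferon-stimulated genes. Of those 16, 12 and 13 lay above 0, where 45.9% and 48.7% of all genes did, and the p53 targets had medians of 0.072 and 0.14 at the same doses. The 20 NRF2 antioxidant genes, the 14 NF-kB and secreted factors, the 17 genes of cholesterol and fatty acid synthesis and the 16 apoptosis regulators had medians between -0.021 and 0.012 at both doses. Medians were -0.031 and 0.057 for 13 histone genes, -0.047 and -0.030 for 21 genes of ribosome biogenesis, 0.024 and 0.046 for 14 immediate early genes and 0.018 and 0.020 for 23 genes of extracellular matrix and TGF-beta. They were 0.0045 and 0.030 for 19 genes of hypoxia and glycolysis and -0.021 and -0.037 for 6 targets of the aryl hydrocarbon receptor. The 12 measured housekeeping genes had medians of -0.0050 and 0.0040. ACTB, cytoplasmic actin, differed by -0.05 and 0.02, and GAPDH, a glycolytic enzyme, by -0.0019 and 0.017.

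**Figure D4:**
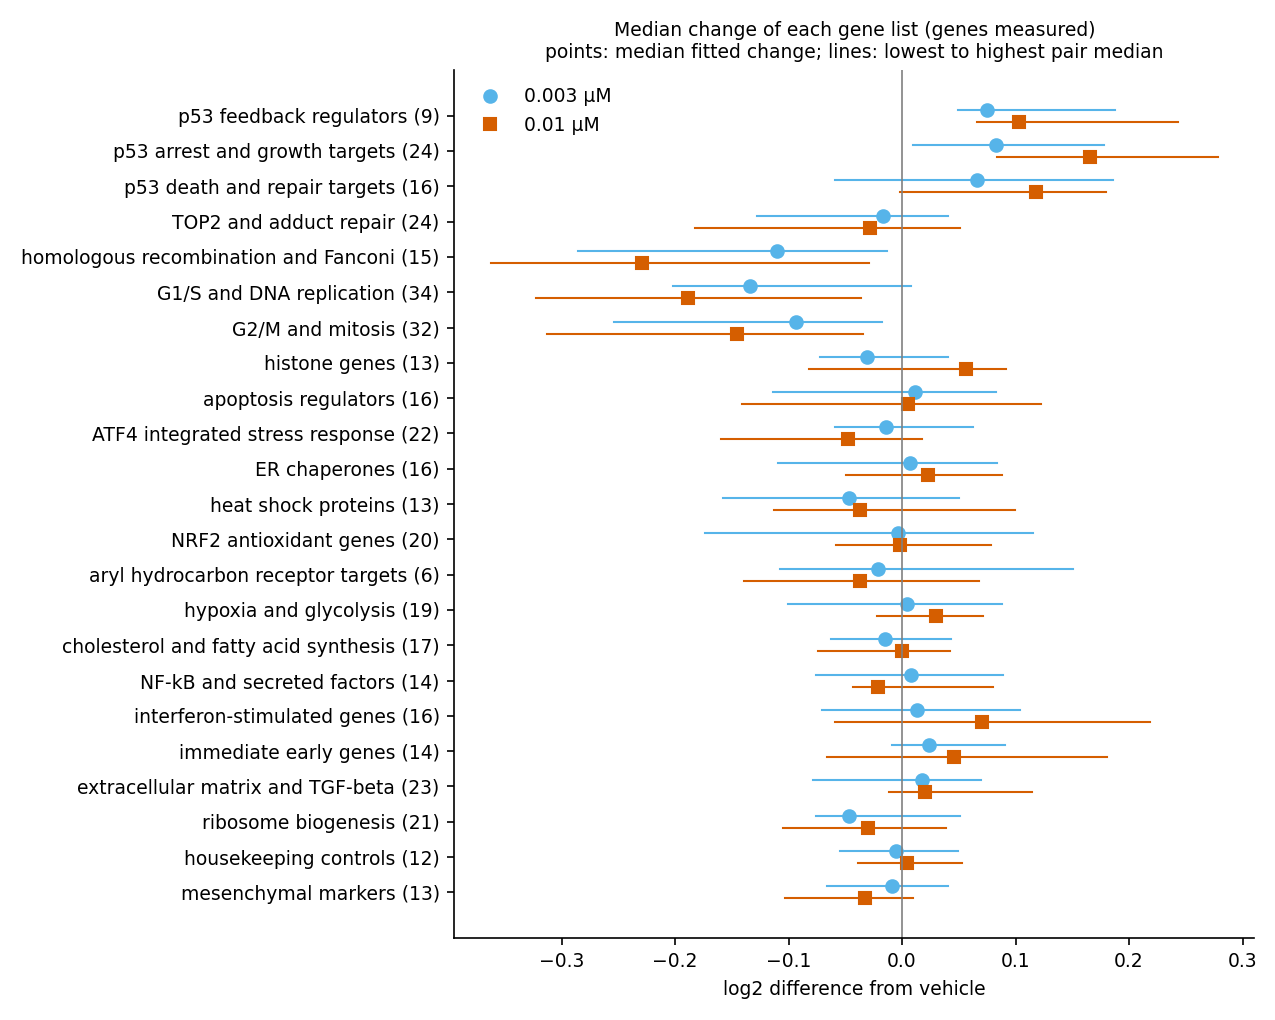
Median log2 change from vehicle of each of 23 gene lists at 0.003 µM (circles) and 0.01 µM (squares), with the number of genes measured in brackets and lines from the lowest to the highest median of the 5 pairs. The medians of the 3 p53 lists lie to the right of 0 and those of the recombination, replication and mitosis lists to the left, at -0.094 to -0.23, while the lines of the p53 death and repair list and of the 17 other lists cross 0 at both doses, and that of the replication list crosses it at 0.003 µM.

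Besides the genes above, the rule for naming took the 5 genes of smallest unadjusted p without the block in each comparison, none of which passed there. MTBP, an MDM2-binding protein, was the lowest of them. Its vehicle arrays read 5.08, 4.72, 4.67, 5.00 and 4.79, those at 0.003 µM 4.68, 4.39, 4.50, 4.44 and 4.56, and those at 0.01 µM 4.62, 4.44, 4.57, 4.39 and 4.51. MTBP was below its own vehicle in all 10 pairs, and at 0.01 µM below every vehicle array, by 0.35 on the log2 scale at that dose (limma adjusted p = 0.127 with the block, 0.0901 pooled). Its mean was 4.51 at each dose, near the filter level of 4. In the number 2 arrays MTBP was higher at 0.003 µM than in the vehicle, by 0.40. OAZ1, the antizyme that limits polyamine synthesis, was higher by 0.12 and 0.10 in 10 of 10 pairs, and PACSIN3, an adaptor of membrane trafficking, by 0.28 and 0.30. GTF2A1-AS1, an antisense RNA, differed by 0.37 at 0.003 µM and by 0.07 at 0.01 µM, from a vehicle mean of 3.995, just below the filter level of 4. Its pairs at 0.003 µM ran from -0.08 in number 1 to 0.72 in number 4. TRAPPC1, a vesicle tethering subunit, differed by -0.31 and 0.07.

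A list of 26 genes that moved most at higher etoposide doses in earlier results of these data holds genes of both directions, with 10 higher and 13 lower at 0.03 µM with the block. It was chosen on these arrays and is no independent evidence. At an unadjusted p under 0.05 with the block, 2 were higher and 0 lower at 0.003 µM, and 6 were higher and 4 lower at 0.01 µM, where 4.23% and 4.49% of all genes were. After adjustment TP53INP1 at 0.01 µM was the 1 member that passed.

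Between the low doses themselves, 0 of 12070 genes passed with or without the block (0%), and 49 (0.406%) and 315 (2.61%) had an unadjusted p under 0.05. CDKN1A was higher at 0.01 than at 0.003 µM by 0.26 (SE 0.08 with the block, limma adjusted p = 1), and TP53INP1 by 0.15 (SE 0.09).

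The step to the next dose gave calls. From 0.01 to 0.03 µM, 6 of 12070 genes passed without the block (0.0497%), all higher, and 682 with it (5.65%). Of these, 2 and 27 reached 1.5-fold. The 6 genes were SUGCT, TP53INP1, CDKN1A, SESN1, DDB2 and EPS8L2. TP53INP1 rose by 0.72 (SE 0.13, limma adjusted p = 0.018) and CDKN1A by 0.47 (SE 0.09, adjusted p = 0.0292). SUGCT, a coenzyme A transferase of glutarate metabolism, rose by 0.83 (SE 0.14, adjusted p = 0.0116), from 8.17, 8.31, 8.22, 7.85 and 8.41 at 0.01 µM to 8.95, 8.72, 9.04, 9.16 and 9.27 at 0.03 µM, with no overlap. The count of 6 was 0 without 0.01 µM number 5, 1 without 0.01 µM number 3 or number 4 and 9 without 0.01 µM number 1, and 0 with the number 2 arrays kept. From 0.003 to 0.03 µM, 61 genes passed without the block (0.505%) and 1589 with it (13.2%). Without the number 1 array at 0.003 µM the count of 61 was 37. At 0.03 µM the 49 p53 targets had a median difference from vehicle of 0.45, and 28 of them passed without the block, where 2.57% of all genes did, and 37 with it, where 23.5% did. The same vehicle arrays enter the values of all 3 doses.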

How the data were processed

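HT-1080 RNA was hybridised to Affymetrix arrays, per the labels' protocols. The deposited values are log2 probe set signals, made by the authors with GCRMA in Partek, per the submitters' processing notes; versions and a genome build are not given in the sources used here. Of 54613 probe sets, 40914 had 1 gene symbol, 864 several and 12835 none in the platform annotation, and 40858 symbols equalled RefSeq names. Probe sets at log2 4 or more in at least 5 of 145 arrays were kept (27102, 4337 of them unnamed), and the one with the highest mean per gene was used, for 12070 genes. Groups and replicate numbers came from titles. limma 3.58.1 (R 4.3.3, trend) was fitted to 40 replicates of 8 etoposide groups without number 2, with Benjamini-Hochberg adjustment over all genes. The fit without a block was the planned main fit.

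Numbers in the titles paired the arrays: correlations of deviations from the group means were 0.24 to 0.869 between same-numbered vehicle and 0.003 µM arrays and 0.187 to 0.802 for 0.01 µM, against means of -0.119 and -0.113 and highest values of 0.18 and 0.202 between different numbers, so the lowest same-number value at 0.01 µM lay below the highest of the others. Nothing says that numbers are separate cultures, so p-values measure the spread between these samples, which may be technical. The 2 arrays of 0.01 µM number 6 correlated at 0.598 in their difference from vehicle number 6. Both differences share that vehicle array, which raises the correlation, so it does not show how well the 2 arrays agree. The SD of the difference between them over genes was 0.177. Between 0.01 and 0.003 µM arrays of the same number, for the other numbers, it was 0.16 on average.

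The members, gene lists and naming rule were chosen with earlier results of these data known. The rule named 8 p53 targets (BTG2, the ninth, is not analysed here), up to 10 genes past adjusted p 0.05 in each low-dose comparison with or without the block, the 5 of smallest unadjusted p where fewer than 5 passed without it, up to 10 from 0.01 to 0.03 µM past 1.5-fold, up to 3 of each list that passed, TOP2A, TOP2B, ACTB and GAPDH. Alternatives covered the block, number 2, the groups fitted, the filter, the probe set rule, quantile normalization, the trend, the "-nf" array and leaving out arrays. The fits were tested on simulated data. The number of arrays limits the precision. Figures used matplotlib 3.10.9.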

Additional observations from a re-analysis of the deposited data

Results flagged for a closer look

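The 24 genes taken by the naming rule and the mean level of the p53 targets were examined for a sample far from the others in the vehicle, at 0.003 µM and at 0.01 µM, in 75 groups of 5 replicates. In 5 of them the gap between an end sample and its neighbour passed Dixon's 95% limit, and chance gives about 1 in 20 such groups. LOC100289026 was lowest in vehicle number 1, at 10.05, with the next at 10.36. MSH6 was highest in vehicle number 1, at 10.62, with the next at 10.31. Both genes passed in the pooled comparison with the replicate block, and the count of such genes was 0 without that array. GTF2A1-AS1 was lowest in vehicle number 4, at 3.82. TOP2A was lowest in number 3 at 0.003 µM, at 10.98. ACTB was highest in number 1 at 0.01 µM, at 13.23.

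The array labelled number 2 at 0.003 µM, which entered no comparison of the report, had mean levels of the p53 targets above the 5 vehicle replicates used and above the mean of the 2 vehicle arrays of number 2. The level of all 49 was 8.54, against 8.31 to 8.46 in the 5 vehicle replicates used and 8.496 as the mean of the number 2 vehicles. It was 9.95 for the feedback regulators, 8.08 for the arrest and growth targets and 8.42 for the death and repair targets. Against that mean the median p53 target of this array differed by 0.025, within the 0.0084 to 0.19 of the other numbers. Its recombination and Fanconi genes differed by 0.15, where the other numbers had -0.29 to -0.013.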

How the results depend on the processing

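The 0 calls without the block at 0.003 µM, at 0.01 µM and pooled stayed at 0 under the other settings without a block. All of these leave the differences between numbers in the error, so the counts could hardly rise and do not show that no gene changed. The medians of the p53 targets kept their sign: 0.042 to 0.097 at 0.003 µM, 0.098 to 0.17 at 0.01 µM and 0.070 to 0.15 pooled when 1 array was left out. With the replicate number as a block the counts were 2 at 0.01 µM and 7 pooled, or 3 and 3 with the vehicle and the 2 low doses fitted alone. With number 2 kept both were 0, with the mean of probe sets 1 and 2, and at 0.01 µM quantile normalization gave 7 and no trend 0. Leaving out an array or number gave 0 to 63 at 0.01 µM, 0 to 2 past 1.5-fold, and 0 to 35 pooled.

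From 0.01 to 0.03 µM the 6 calls became 682 with the block and 1116 with the block and doses above 0.03 µM left out. They became 0 with number 2 kept and 0 to 9 with an array left out. Single arrays were left out of the vehicle, 0.003 µM and 0.01 µM groups only. The ranges over single arrays therefore do not show how the counts depend on the 0.03 µM arrays. The 2 past 1.5-fold became 27, 29, 0 and 0 to 3 in the same order. They became 4 with doses above 0.03 µM left out and 1 with the mean of probe sets. From 0.003 to 0.03 µM the 61 became 1589, 1972, 9 and 37 to 75, and the 20 past 1.5-fold became 69, 69 and 5. With the block and number 2 kept these counts were 11, 2, 64 and 14, and with an array or number left out 103 to 813, 8 to 41, 666 to 1818 and 57 to 88. Small changes turned sign when an array or a number was left out. Without the block, CDKN1A at 0.003 µM ran from -0.012 to 0.11, lowest without vehicle number 6. With the block it ran from -0.020 to 0.13, with -0.0029 without all of number 6. GDF15 at 0.003 µM was -0.042 without vehicle number 1, and up to 0.22, in the fits without the block. With the block GDF15 kept its sign, at 0.033 to 0.15. Pooled ACTB without the block was 0.046 without vehicle number 1 and 0.0070 without 0.003 µM number 4, otherwise down to -0.070. Pooled GAPDH without the block was -0.00071 without 0.003 µM number 6, otherwise up to 0.015. The cause of these shifts was not tested. With 5 arrays a group, the median 95% interval without the block reached 1.17-fold either way.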
